A study of Mus musculus with 20 samples.

Results

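The endoderm transcription factors followed here were Foxa1, Foxa2 and Foxa3, which bind DNA through a forkhead domain, Sox7 and Sox17, which carry a high mobility group box, and the nuclear receptor Hnf4a. The 6 genes were taken by symbol from a differentiation time course with 22102 gene entries and from a survey of cell lines with 42115 entries that held values. Each was listed in all 20 libraries. All 6 passed the filter on low values in the time course and 4 passed it in the survey, where Sox7 and Hnf4a were too low to be tested. In the time course none of the 6 reached the level of that filter in any day 0 library. Foxa1 and Sox17 reached it only through libraries of days 6 and 9, and Sox7 only through the scrambled hairpin libraries of those days. Hnf4a reached it only through the scrambled hairpin and hairpin A libraries of day 6. In the survey the genes that passed reached it only through v6.5 and miPS libraries.

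The study asked what the long noncoding RNA Braveheart does while mouse embryonic stem cells turn into heart muscle, and measured polyadenylated RNA by sequencing. E14 embryonic stem cells (strain 129/Ola) served for the time course, all of them transduced with a lentiviral short hairpin RNA in pLKO.1 and selected with puromycin. Of its 3 cultures, 1 carried a scrambled hairpin and the others carried hairpin A or hairpin B, both aimed at Braveheart, and each was sequenced once at days 0, 3, 6 and 9. The labels describe both embryoid bodies made without LIF and a directed cardiomyocyte protocol with VEGF, Activin A and BMP4, and the sources used here do not say which of them a library came from. The survey held 2 libraries each of the wild type embryonic stem cell (mESC) lines E14 (129/Ola) and v6.5 (129/svJae x C57BL/6). It also held 1 library of embryonic fibroblasts (MEF) with an Oct4-GFP allele, 1 each of the partially reprogrammed lines 11.3 and 11.5, and 1 of the fully reprogrammed line miPS MCV8.1. These lines shared the strain of v6.5, and the 3 reprogrammed lines had received retroviral Oct4, Sox2, c-myc and Klf4. The mESC and miPS cells had grown on irradiated fibroblasts, which were removed by pre-plating, whereas lines 11.3 and 11.5 had grown without feeders. The labels do not state that survey replicates came from separate cultures, and the p-values below reflect no more than the scatter among the samples at hand, which may be technical. The level of Braveheart itself was not analysed here.

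Definitive endoderm, the source of gut, liver, pancreas and lung, arises from the primitive streak under high Nodal or Activin signalling, next to the mesoderm that forms the heart. Foxa2 and Sox17 are classic markers of it, and Foxa factors are known for opening closed chromatin at liver and gut enhancers. The same genes are used elsewhere: Foxa2 and Foxa1 in node, notochord and floor plate, Sox7 and Sox17 in endothelium, and Hnf4a and Sox7 in the visceral and parietal endoderm of the yolk sac. In bulk RNA, fewer cells of a type and less RNA per cell cannot be told apart.

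Time course levels are in FPKM, reads scaled to transcript length and library size. Judged from the smallest steps between low values, libraries held 7731840 to 12855034 reads, and 3 reads on a 1 kb transcript would give 0.233 to 0.388 FPKM. The survey libraries summed to between 7536503 and 23662593 reads. Pluripotency markers checked the stage of each culture. All 12 markers on the list were at 1 FPKM or more in every library, and their summed level was 6633 to 7956 FPKM at day 0. At days 6 and 9 the sum was 1052 and 818 FPKM in the scrambled culture and 1340 and 945 FPKM with hairpin A, but 5035 and 7677 FPKM with hairpin B. The hairpin B libraries of days 6 and 9 therefore stood apart, and the tests of days, the counts of lists and the correlations below are given with and without them.

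The starts of the Foxa genes are shown because these genes share a protein family but followed different courses below. The upstream 250 bases are from RefSeq (GRCm38.p6), written 5′ to 3′ on the gene's strand. Capitals mark exact matches to any of 10 searched motifs on either strand. The files use build mm9, in which the loci are chromosome 12, 58641618 to 58647108, for Foxa1, chromosome 2, 147868613 to 147872705, for Foxa2, and chromosome 7, 19598631 to 19608888, for Foxa3.
Foxa1, chr12:57546112-57546361, minus strand: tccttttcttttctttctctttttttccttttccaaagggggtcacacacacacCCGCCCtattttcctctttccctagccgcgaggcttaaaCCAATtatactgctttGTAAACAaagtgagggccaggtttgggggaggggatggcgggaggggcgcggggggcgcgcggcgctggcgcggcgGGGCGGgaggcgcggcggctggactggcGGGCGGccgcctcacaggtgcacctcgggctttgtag
Foxa2, chr2:148046970-148047219, minus strand: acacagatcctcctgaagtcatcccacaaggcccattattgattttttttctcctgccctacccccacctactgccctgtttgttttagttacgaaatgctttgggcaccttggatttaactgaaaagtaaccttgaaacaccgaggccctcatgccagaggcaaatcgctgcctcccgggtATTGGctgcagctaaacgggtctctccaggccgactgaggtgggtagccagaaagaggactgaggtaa
Foxa3, chr7:19023540-19023789, minus strand: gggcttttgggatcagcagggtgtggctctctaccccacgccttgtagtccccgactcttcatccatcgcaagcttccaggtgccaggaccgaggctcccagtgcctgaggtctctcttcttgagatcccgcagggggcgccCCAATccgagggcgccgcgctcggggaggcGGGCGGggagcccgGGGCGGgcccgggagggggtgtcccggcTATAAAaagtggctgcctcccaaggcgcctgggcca
The Foxa1 piece held the forkhead motif TGTTTAC on the opposite strand at position -141 from the start, which 3.17% of 32851 RefSeq promoters of this length held. It also held CCAAT (33.8% of promoters) at -157 and the GC box GGGCGG (32.7%) at -196, -65 and -37. The Foxa2 piece, the furthest upstream of the 3 starts listed for that gene, held only CCAAT, at -68. Foxa3 was the one of these pieces with the TATA motif TATAAA, at -36, which 12.4% of promoters held, together with CCAAT at -108 and GGGCGG at -78 and -64. None of the 3 pieces matched TGTTTGC (4.30%), ACAAT (27.7%), AGATAA (9.99%), CAAAGTCC (1.20%), TCACACCT (1.12%) or AATCCACA (0.718%). ACAAT and CCAAT share the letters CAAT, and no 2 matches overlapped in these pieces. The other 2 pieces listed for Foxa2 held GGGCGG at -71 and -160 and at -239, the last with AGATAA at -183 and TATAAA at -208. Of the 2 pieces listed for Hnf4a, 1 held ACAAT at -134, AGATAA at -52, CCAAT at -192 and GGGCGG at -44, and the other held CCAAT at -216. The pieces were 62.0%, 50.8% and 68.8% G and C for Foxa1, Foxa2 and Foxa3. A match describes letters only and shows no binding.

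Foxa2, Sox17 and Foxa3 were higher at day 6 than at day 0 over the 3 cultures, by 3.61 ± 0.91, 2.86 ± 0.66 and 0.97 ± 0.22 (SE) on the log2(FPKM + 1) scale, and Foxa2 was still higher at day 9, by 3.06 ± 0.91. In the scrambled and hairpin A cultures Foxa1 was highest at day 9, whereas Foxa3, Sox17 and Hnf4a were highest at day 6. The levels of all 6 genes are given next, library by library.

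Foxa1 read 0.888, 0.393, 10.3 and 24.3 FPKM at days 0, 3, 6 and 9 of the scrambled culture, 0.706, 0.476, 9.72 and 23.2 FPKM with hairpin A, and 0.680, 0.366, 1.52 and 1.17 FPKM with hairpin B. The day 3 libraries were the lowest of each culture, and the scrambled and hairpin A courses lay close together while hairpin B stayed low. Day 6 exceeded day 0 by 11.6-fold in the scrambled culture, 13.8-fold with hairpin A and 2.23-fold with hairpin B. From day 6 to day 9 the ratio was 2.35 (scrambled), 2.39 (hairpin A) and 0.772 (hairpin B). In mouse embryos Foxa1 is known to come on after Foxa2.

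Foxa2, the earliest of the family in the embryo, read 0.376, 1.91, 32.8 and 29.5 FPKM in the scrambled culture, 0.678, 1.48, 33.9 and 32.2 FPKM with hairpin A, and 0.892, 2.31, 5.75 and 1.52 FPKM with hairpin B. It was the highest of the 6 genes at day 6 in every culture. All 3 day 3 libraries lay above all 3 day 0 libraries, and all day 6 libraries lay above all day 3 libraries. Day 6 stood 87.5-fold above day 0 in the scrambled culture, where day 0 rested on about 9.00 reads, 50.0-fold with hairpin A and 6.45-fold with hairpin B. The ratio of day 9 to day 6 was near 1 in scrambled (0.898) and with hairpin A (0.951) and lower with hairpin B (0.265).

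Foxa3, the member most tied to liver and gut metabolism, read 0.525, 1.58, 2.68 and 0.683 FPKM in the scrambled culture, 0.716, 1.91, 2.92 and 0.717 FPKM with hairpin A, and 0.723, 1.37, 1.34 and 1.09 FPKM with hairpin B. It was the lowest Foxa gene at days 6 and 9 in the scrambled and hairpin A cultures. Day 6 exceeded day 0 by 5.11-fold (scrambled), 4.08-fold (hairpin A) and 1.85-fold (hairpin B). By day 9 the level was 3.93-fold and 4.08-fold below day 6 in the first 2 of these and 1.23-fold below it with hairpin B, so all 3 day 9 libraries were lower than all 3 day 6 libraries.

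Sox17, a factor of definitive and extraembryonic endoderm and of arterial endothelium (chromosome 1, 4481008 to 4486494, mm9), read 0.137, 0.134, 12.3 and 6.64 FPKM in the scrambled culture, 0.240, 0.143, 12.8 and 7.57 FPKM with hairpin A, and 0.160, 0.0799, 2.42 and 0.463 FPKM with hairpin B. At days 0 and 3 it lay near the level of 3 reads (0.0720 to 0.12 FPKM on its longest transcript), and every day 6 library lay far above that. Day 6 to day 0 ratios were 89.5, 53.3 and 15.1, of which the scrambled day 0 value rested on about 5.01 reads. Day 9 was 1.85-fold, 1.69-fold and 5.21-fold below day 6.

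Sox7 (chromosome 14, 64562542 to 64569569, mm9), which in mice is a factor of parietal endoderm and blood vessels, read 0.105, 0.0766, 2.04 and 1.81 FPKM in the scrambled culture, 0.295, 0.109, 0.607 and 0.875 FPKM with hairpin A, and 0.307, 0.0763, 0.201 and 0.186 FPKM with hairpin B. The scrambled libraries were the highest at days 6 and 9 and the hairpin B libraries the lowest, with hairpin A between them. The hairpin B value at day 6 was below that culture's own day 0. These were low levels, of about 65.0 reads at day 6 for scrambled, 16.9 for hairpin A and 7.87 for hairpin B. Sox18, which with Sox7 and Sox17 makes up the SoxF group, read 0.737, 2.10, 2.21 and 3.29 FPKM in the scrambled culture, 1.42, 2.83, 1.24 and 2.39 FPKM with hairpin A, and 0.551, 1.10, 0.597 and 0.555 FPKM with hairpin B. With either hairpin Sox18 was lower at day 6 than at day 3, unlike in scrambled.

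Hnf4a, a nuclear receptor of visceral endoderm and liver, read 0.444, 0.0565, 2.10 and 0.711 FPKM in the scrambled culture, 0.507, 0.0603, 1.69 and 0.701 FPKM with hairpin A, and 0.0188, 0.113, 0.314 and 0.447 FPKM with hairpin B. Day 3 values and the hairpin B value of day 0 were near or under 3 reads (0.0535 to 0.0890 FPKM on the longest transcript). In the scrambled and hairpin A cultures the gene was highest at day 6, 2.95-fold and 2.40-fold above day 9, whereas with hairpin B day 6 was 0.704 of day 9. The deposited Hnf4a locus (chromosome 2, 163372923 to 163398643, mm9) spanned 25720 bases against 66097 bases in RefSeq. Part of the annotated gene thus lies outside it, and some Hnf4a transcripts may be counted in part only. The deposited loci of Foxa1 (5490 against 7402 bases) and Sox17 (5486 against 6499 bases) were also shorter than in RefSeq.

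**Figure D1:**
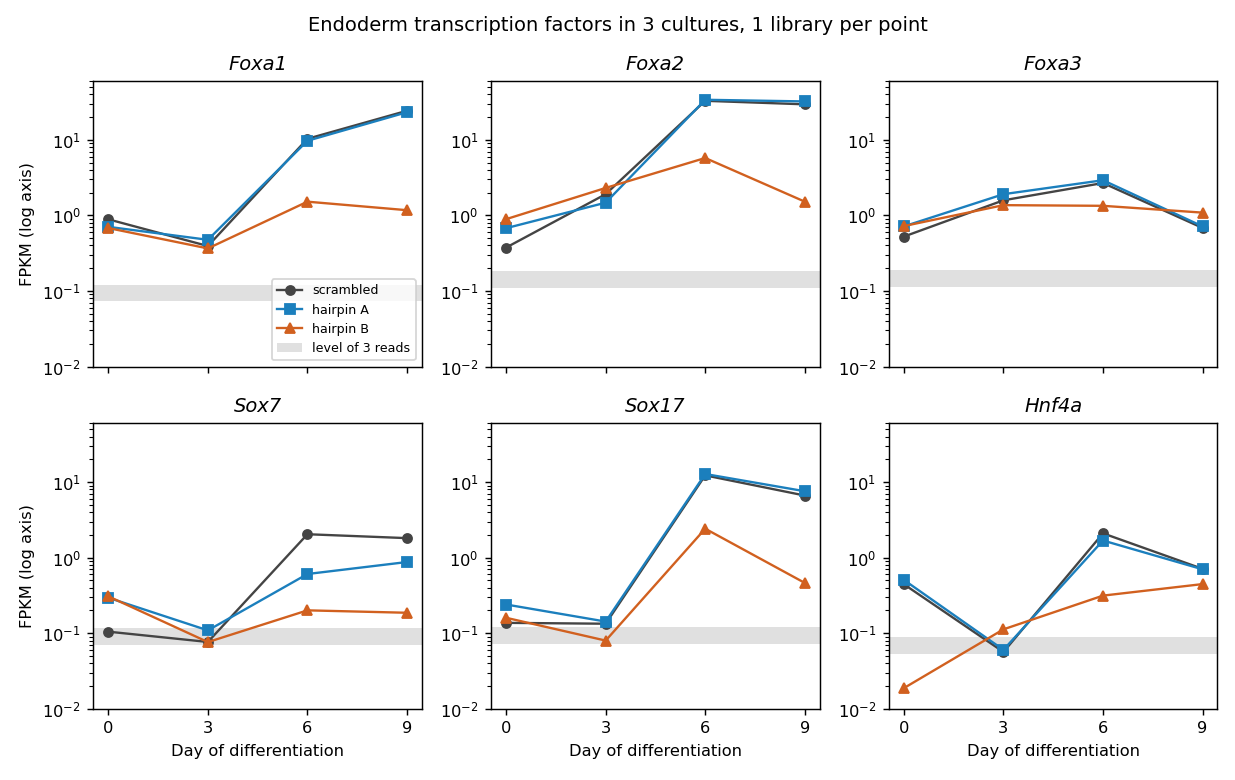
Levels of the 6 genes by day, in FPKM on a log axis, 1 point per library, joined within each culture; the grey band is the level that 3 reads would give on the longest transcript. Scrambled and hairpin A run together for Foxa1, Foxa2, Foxa3, Sox17 and Hnf4a, hairpin B is lowest at day 6 in every panel, and Sox7 is split between all 3 cultures.

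In the order of levels at day 6, Foxa2 came first at 24.2 ± 16.0 FPKM (mean ± SD, n = 3), followed by Sox17 at 9.16 ± 5.84, Foxa1 at 7.19 ± 4.92, Foxa3 at 2.31 ± 0.853, Hnf4a at 1.37 ± 0.934 and Sox7 at 0.950 ± 0.967 FPKM. This order was the same in each of the 3 cultures, although the ranges of all neighbours overlapped over the cultures. At day 9 Foxa2 (21.1 ± 17.0 FPKM) and Foxa1 (16.2 ± 13.0) led, Sox17 had 4.89 ± 3.86, and Sox7, Foxa3 and Hnf4a lay between 0.620 and 0.958 FPKM, again with overlapping neighbours, and Foxa2 was above Foxa1 and Foxa1 above Sox17 in each culture. At day 0 no mean was above 0.758 FPKM, the value of Foxa1. At day 3 the order was Foxa2 at 1.90 ± 0.417 and Foxa3 at 1.62 ± 0.273 FPKM, which overlapped, and then Foxa1 at 0.411 ± 0.0572 FPKM, which did not overlap Foxa3.

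At day 6, 3 of the 6 genes passed limma's test against day 0, all higher, while 4.97% of all 14108 genes tested were called higher and 8.68% were called in either direction. All 6 were under 1 FPKM in every day 0 library and had reached the filter through later days. Levels above day 0 were thus favoured by the filter, here and at days 3 and 9, and the number called supports nothing further. Adjusted p (limma, Benjamini-Hochberg over all genes) was 0.0418 for Foxa2, 0.0313 for Foxa3 and 0.0331 for Sox17. Foxa1 (log2 difference 1.94, adjusted p = 0.147 in limma), Hnf4a (0.77, adjusted p = 0.109) and Sox7 (0.55, adjusted p = 0.261) did not pass. All 3 day 6 libraries lay above all 3 day 0 libraries for Foxa1, Foxa2, Foxa3 and Sox17, as did 23.2% of all genes. With the hairpin B libraries of days 6 and 9 left out, all 6 passed, with differences of 2.64 for Foxa1, 4.42 for Foxa2, 1.22 for Foxa3, 3.53 for Sox17, 1.13 for Hnf4a and 0.80 for Sox7, while 27.4% of genes were called higher and 46.3% in either direction. Each of the 3 calls was lost on leaving out any 1 library of days 0 and 3, or the scrambled or hairpin A library of day 6, and that of Foxa2 also without the scrambled library of day 9 or with no filter on low values (adjusted p = 0.0612 in limma). Over all single libraries left out, adjusted p in limma ran from 0.00336 to 0.198 for Foxa2, from 0.00699 to 0.158 for Foxa3 and from 0.00395 to 0.165 for Sox17.

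At day 9, 1 of the 6 genes passed against day 0, which was Foxa2 (adjusted p = 0.0487 in limma), while 10.3% of genes were called higher and 16.6% in either direction. Foxa1 (log2 difference 2.65 ± 0.83 SE, adjusted p = 0.0550 in limma) and Sox17 (1.96 ± 0.66, adjusted p = 0.0645) lay just outside the threshold. With culture as a block in the limma fit, Foxa1, Foxa2 and Sox17 all passed, with adjusted p of 0.0263, 0.0274 and 0.0285, among 4218 genes called. All 3 day 9 libraries lay above all 3 day 0 libraries for these same 3 genes, as did 19.5% of all genes. Sox7 differed by 0.58 (adjusted p = 0.193 in limma), Hnf4a by 0.31 (0.426) and Foxa3 by 0.14 (0.639). Without the hairpin B libraries, Foxa1 (3.80), Foxa2 (4.31), Sox17 (2.79) and Sox7 (0.86) passed, and 35.6% of genes were called higher and 60.1% in either direction. The Foxa2 call was lost on leaving out any single library other than those of hairpin B at days 6 and 9, with adjusted p up to 0.208 in limma, and also with no filter on low values (0.0720) and with libraries scaled to 1 median (0.0508).

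At day 3 none of the 6 passed limma's test against day 0, where 6.04% of genes did, and 1 had an unadjusted p under 0.05. That gene was Foxa3, with a difference of 0.66 ± 0.22 (SE) and an adjusted p of 0.106. Foxa2 and Foxa3 were higher in all 3 day 3 libraries than in all day 0 libraries, as were 22.2% of genes, and Foxa1 was lower in all of them, as were 19.7%. The hairpin B libraries of days 6 and 9 entered this comparison only through the shared spread. Without them Foxa2 (0.82, adjusted p = 0.00669 in limma) and Foxa3 (0.66, adjusted p = 0.00563) passed, as did 27.2% of genes in either direction.

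The step from day 6 to day 9 was compared after the values had been seen. In all 12 libraries none of the 6 passed limma's test, 1 had an unadjusted p under 0.05 (Foxa3, -0.83, adjusted p = 0.169), and 0.0425% of genes passed. Foxa3 was lower at day 9 in all 3 libraries than at day 6 in all 3, as were 6.83% of genes. Without the hairpin B libraries of days 6 and 9, 16.0% of genes passed (8.86% higher, 7.16% lower), and so did 4 of the 6. Of these Foxa1 was higher at day 9 by 1.17 (adjusted p = 0.00109 in limma), and Foxa3, Sox17 and Hnf4a were lower, with log2 differences of -1.16, -0.74 and -0.76 (adjusted p = 0.00180, 0.00734 and 0.0339). Foxa2 (-0.11) and Sox7 (0.05) did not pass. Hnf4a had reached the filter only through the scrambled and hairpin A libraries of day 6. A fall to day 9 was thus favoured by the filter, and the Hnf4a call supports nothing further.

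Hairpin B libraries held far less Foxa1, Foxa2 and Sox17 than scrambled libraries at days 6 and 9, whereas hairpin A libraries were close to scrambled for these genes. At day 6 hairpin B was 6.79-fold lower than scrambled for Foxa1, 5.71-fold for Foxa2 and 5.08-fold for Sox17, and at day 9 it was 20.7-fold, 19.4-fold and 14.3-fold lower. Hairpin A to scrambled ratios were 0.942 and 0.957 for Foxa1, 1.03 and 1.09 for Foxa2 and 1.04 and 1.1 for Sox17 at days 6 and 9. Sox7 was lower than scrambled with both hairpins, by 3.36-fold with hairpin A and 10.2-fold with hairpin B at day 6, and by 2.07-fold and 9.72-fold at day 9. Whether Sox7 differed from the other 5 genes in this was not tested.

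None of the 6 genes passed limma's test of the hairpins against scrambled on any day, with adjusted p from 0.873 to 1.0, and the share of all genes called was 0.0213%, 0.0284%, 0.0425% and 0.0354% at days 0, 3, 6 and 9. The test took hairpins A and B as replicates of 1 group, so their difference entered the spread. At day 9 hairpin A exceeded hairpin B 19.8-fold for Foxa1 and 21.2-fold for Foxa2, with SE of 1.40 and 1.52. For such genes this test could not decide whether either hairpin differed from scrambled. An unadjusted p under 0.05 was seen for none of the 6 at days 0 and 3 and for Sox7 alone at days 6 and 9. Sox7 had reached the filter only through the scrambled libraries of days 6 and 9. Lower values with the hairpins were thus favoured by the filter, and its unadjusted p supports nothing further. The Sox7 differences were -1.13 ± 0.37 (SE) at day 6 and -0.91 ± 0.37 at day 9 on the log2(FPKM + 1) scale, and -0.92 and -0.58 with hairpin A alone against scrambled. With hairpin A alone none of the 6 passed at either day (unadjusted p under 0.05 for Sox7 alone on each day), where 0.136% and 0.1% of genes did. Both hairpin libraries lay below scrambled for Foxa1, Hnf4a and Sox7 at day 6, as for 33.4% of genes, and for the same 3 at day 9, as for 34.2%. That held for Foxa1 at day 0 (29.9% of genes) and for none of the 6 at day 3 (27.8%). For Sox7 the change from day 0 to day 6 differed between hairpins and scrambled by -1.37 (adjusted p = 1 in limma), and no gene of the 6 passed this test for any pair of days 0, 6 and 9.

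Other marker lists moved with the cultures. The sum of 10 cardiomyocyte genes was 73.9 FPKM (scrambled), 29.6 (hairpin A) and 13.1 (hairpin B) at day 6 and 502, 89.8 and 19.8 FPKM at day 9, in the order of cultures that Sox7 showed. In those libraries 8, 6 and 4 of these genes were at 1 FPKM or more at day 6 and 9, 8 and 7 at day 9. The sum of 15 endothelial genes, with 14, 11 and 9 of them at 1 FPKM or more at day 6, was 96.8, 57.9 and 65.9 FPKM. At day 9 it was 131, 68.0 and 89.1 FPKM, with 15, 15 and 7 of them at 1 FPKM or more. Pecam1, which undifferentiated cells also held (16.4 to 28.8 FPKM at day 0), gave 25.5 and 38.5 FPKM of the hairpin B sums. Without it, a choice made after the values were seen, the sums were 89.9, 51.3 and 40.4 FPKM at day 6 and 119, 58.9 and 50.6 FPKM at day 9. These sums followed the order of cultures that Sox7 showed, and the full sums did not. Eng, which undifferentiated cells also held (10.1 to 16.1 FPKM at day 0), was left in. It was highest with hairpin B on both days, at 5.30 and 11.9 FPKM. The part of these cells, and of the pluripotency genes given above for hairpin B, in the levels of the 6 genes was not tested.

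**Figure D2:**
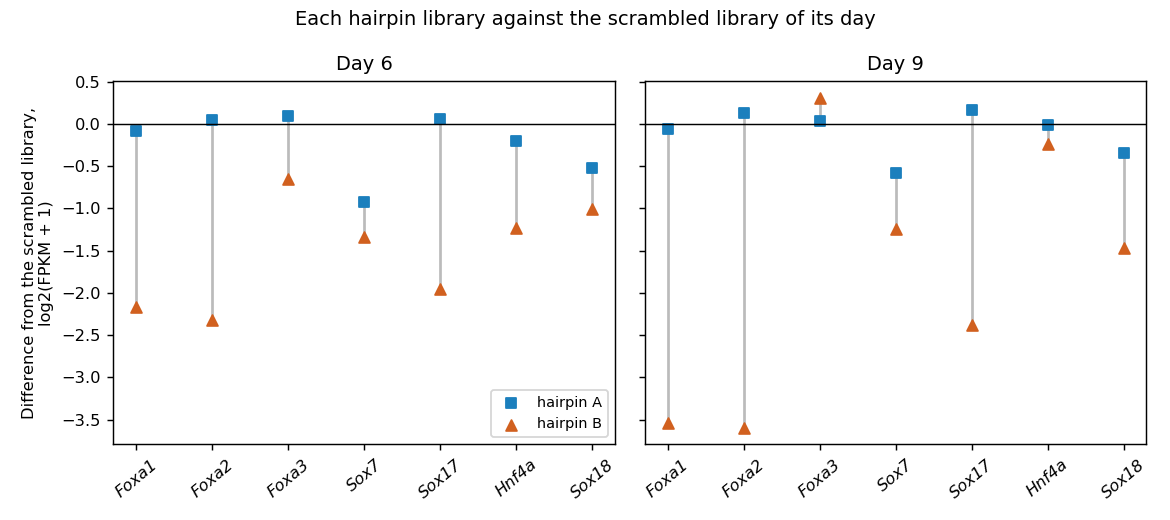
Difference of each hairpin library from the scrambled library of the same day, on the log2(FPKM + 1) scale, for the 6 genes and Sox18 at days 6 and 9; the grey line joins the 2 hairpin libraries. Hairpin A lies near 0 for Foxa1, Foxa2, Foxa3, Sox17 and Hnf4a and at -0.92 and -0.58 for Sox7, while hairpin B lies at -3.54 for Foxa1 and -3.60 for Foxa2 at day 9.

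Regulators that act upstream of endoderm changed in both directions. In this list and those below, some genes reached the filter only through libraries of days 6 and 9. Rises over day 0 were favoured by the filter for such genes, so the counts of rises and the list medians are descriptions only. At day 6, 3 of 18 Nodal pathway and mesendoderm genes rose and 2 fell, with a list median of 0.33 on the log2 scale against 0.07 over all genes, of which 4.97% rose and 3.71% fell. In day 6 libraries Lhx1, a homeobox gene of anterior mesendoderm, was at 17.0 FPKM (scrambled), 18.0 (hairpin A) and 3.92 (hairpin B), and it was at no more than 0.164 FPKM in any library of days 0 and 3 (difference 3.51 ± 0.51 SE). Gsc, a homeobox gene of the organizer, rose by 2.30 ± 0.47 to 10.5, 12.5 and 3.88 FPKM. Lefty1 and Lefty2, secreted Nodal antagonists that stem cells also make, fell by 2.95 ± 0.71 and 2.81 ± 0.73. At day 9 no gene of the list passed as higher and 3 fell, as did 6.22% of all genes. Already at day 3, 2 of the 18 rose: Eomes, a T-box activator of endoderm, by 1.33 ± 0.32 and Foxh1, a Nodal signal transducer, by 1.26 ± 0.29, on a day when 3.26% of all genes rose. With hairpin B of days 6 and 9 left out, 6 rose and 1 fell at day 3, 10 rose and 5 fell at day 6, and 10 rose and 7 fell at day 9. Over all genes 27.2%, 46.3% and 60.1% were then called in either direction at these days, and 27.4% and 35.6% rose at days 6 and 9. With culture as a block 5 rose at day 6, when 9.57% of all genes did, and 2 rose and 6 fell at day 9, when 18.8% of all genes rose.

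Of 18 tested genes of definitive endoderm and gut tube, 9 rose and none fell at day 6, with a median of 2.65, and 5 rose and none fell at day 9, with a median of 1.85 against 0.10 over all genes. Of all genes 4.97% rose at day 6 and 10.3% at day 9. Cer1 and Dkk1, given below, were under 1 FPKM in all libraries of days 0 and 3. The filter thus favoured the rise of such genes. Spink3, a protease inhibitor of gut endoderm, was at 252 FPKM (scrambled), 239 (hairpin A) and 26.7 (hairpin B) at day 6 and at 69.9, 53.2 and 4.24 FPKM at day 9. Cer1, a secreted Nodal and BMP antagonist, was at 53.6, 69.7 and 10.7 FPKM at day 6 and 5.93, 7.21 and 1.07 FPKM at day 9. Like Foxa3 and Sox17, both were lower at day 9 than at day 6 in all 3 cultures. Dkk1, a Wnt antagonist, was high at day 9 in scrambled (44.5 FPKM) and with hairpin A (48.2 FPKM) but not with hairpin B (1.44 FPKM). With the hairpin B libraries of days 6 and 9 left out, 15 of the 18 rose and 1 fell at day 6, and 14 rose and 2 fell at day 9, when 27.4% and 35.6% of all genes rose. With culture as a block and all 12 libraries, 11 rose and 2 fell at day 9, when 18.8% of all genes rose.

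Of 20 genes of primitive, visceral and parietal endoderm, 7 rose at day 6 and 5 at day 9, none fell at either day, and the medians were 0.87 and 1.16. Over all genes 4.97% rose at day 6 and 10.3% at day 9. Bmp2, a signal of visceral endoderm, reached 16.6, 17.3 and 3.76 FPKM at day 6. Pth1r, the parathyroid hormone receptor of parietal endoderm, reached 11.1, 12.1 and 2.93 FPKM. Col4a1, a basement membrane collagen that many cell types make, was at 43.8, 47.5 and 22.6 FPKM at day 9, against 6.11 to 7.38 FPKM at day 0. Leaving out hairpin B gave 14 that rose and 1 that fell at day 6, and 15 and 2 at day 9, when 27.4% and 35.6% of all genes rose. With culture as a block 1 fell at day 6, and 10 rose and 1 fell at day 9, when 18.8% of all genes rose.

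Of 13 tested secreted products of liver and yolk sac, of the kind that Hnf4a and Foxa factors are known to regulate, 1 rose at day 6 (7.69%, near the 4.97% of all genes) and 5 rose at day 9 (38.5%, against 10.3%), with medians of 0.60 and 1.07. The list held 20 genes, and the rest of them did not reach the filter. Apoa1, an apolipoprotein, was the gene called at day 6, at 5.33, 3.78 and 1.38 FPKM. Vtn, vitronectin, went from 1.78, 1.06 and 0.199 FPKM at day 6 to 46.1, 39.4 and 0.417 FPKM at day 9. Afp, alpha-fetoprotein, stood at 21.1, 9.78 and 0.379 FPKM at day 9, and Rbp4, a retinol carrier, at 29.2, 14.5 and 3.87 FPKM. Vtn and Afp had reached the filter only through libraries of days 6 and 9, so it favoured their rise. Vtn, Afp and Rbp4 were higher at day 9 than at day 6 in the scrambled and hairpin A cultures, while Hnf4a and Foxa3 were lower. Other genes of the list went either way. In the same cultures Apoa1 was lower at day 9, at 3.66 and 2.38 FPKM. So was Apoe, with 302 and 359 FPKM at day 6 and 195 and 190 FPKM at day 9. Of the 12 tested when hairpin B was left out, 7 rose and 2 fell at day 6, and 9 rose and 1 fell at day 9, when 27.4% and 35.6% of all genes rose. The culture block gave 2 that rose at day 6 and 8 at day 9, against 9.57% and 18.8% of all genes.

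For other tissues that use these factors, the counts were near those of all genes in some cases. Of 9 tested genes of node, notochord and floor plate, 2 rose at day 6 (Nog, a BMP antagonist, and Foxj1, a regulator of motile cilia) and 2 at day 9 (Nog and Lmx1a, a floor plate homeobox gene). That was 22.2% at each day, against 4.97% and 10.3% of all genes. The signal Shh, a known target of Foxa2 in the axial midline, was at 10.3, 11.2 and 1.75 FPKM at day 6 and at 47.6, 46.8 and 0.230 FPKM at day 9. Like Foxa1 it was higher at day 9 than at day 6 except with hairpin B, and it did not pass in all 3 cultures (adjusted p = 0.137 and 0.0527 in limma). Of 15 endothelial genes 1 rose at day 6 (Flt1, a VEGF receptor) and 1 at day 9 (Cldn5, a tight junction protein), which is 6.67%, near the 4.97% of all genes at day 6 and below the 10.3% at day 9. When hairpin B was left out, 7 node, notochord and floor plate genes rose at each day, and of the endothelial genes 5 rose and 2 fell at day 6, and 9 rose and 2 fell at day 9, when 27.4% and 35.6% of all genes rose. The culture block gave 4 node, notochord and floor plate genes and 5 endothelial genes that rose at day 9, when 18.8% of all genes did, and 1 endothelial gene that fell at day 6.

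With hairpin A alone against scrambled, the median difference of the definitive endoderm list was 0.00 at day 6 and -0.08 at day 9. That of the cardiomyocyte list was -0.84 and -2.22 and that of the endothelial list -0.75 and -0.63, against 0.00 and -0.03 over all genes. With hairpin A alone the medians of primitive, visceral and parietal endoderm genes were 0.03 and 0.10. Node, notochord and floor plate genes were at 0.35 and 0.14. Secreted products of liver and yolk sac were at -0.17 and -0.48, and fibroblast genes at -0.42 and -0.68. With both hairpins the definitive endoderm medians were -0.56 and -0.75, against -0.02 and -0.07 over all genes. No gene of the definitive endoderm, cardiomyocyte and endothelial lists passed with both hairpins.

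**Figure D3:**
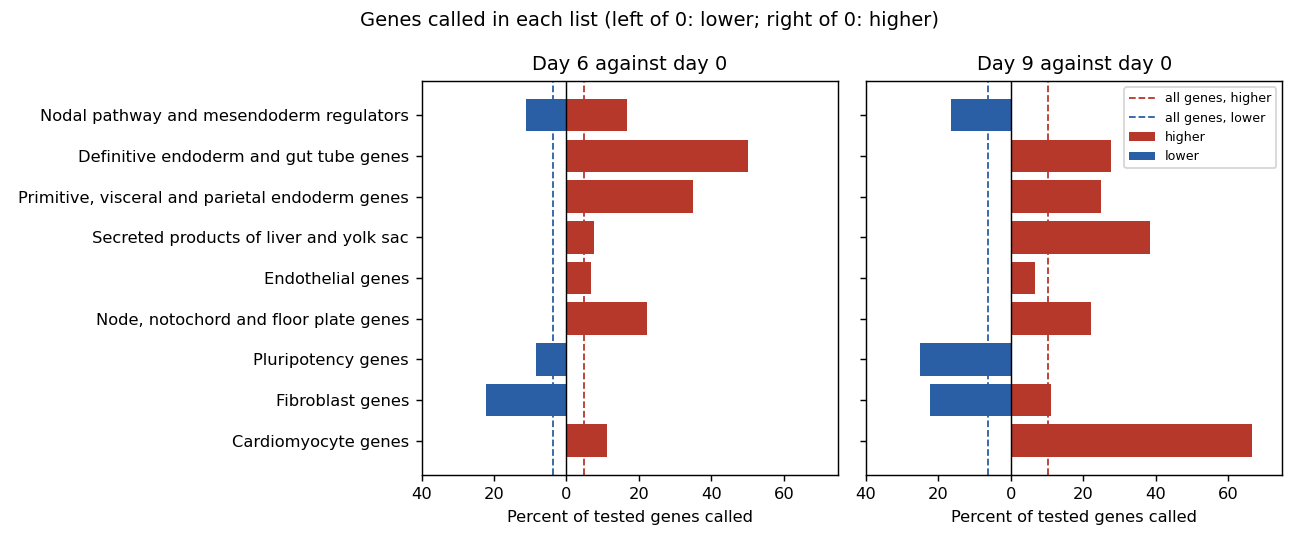
Percent of the tested genes of each list called at day 6 and day 9 against day 0 (limma, adjusted p under 0.05), higher to the right of 0 and lower to the left; dashed lines give the share over all genes, 4.97% higher at day 6 and 10.3% at day 9. Definitive endoderm genes have the longest bar at day 6 (9 of 18), and cardiomyocyte genes have the longest at day 9 (6 of 9). With hairpin B left out 7 of 9 cardiomyocyte genes, 7 of 9 node, notochord and floor plate genes and 14 of 18 definitive endoderm genes rose at day 9, as did 35.6% of all genes. Rises were favoured by the filter for genes that reached it only through days 6 and 9.

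Within the 6 genes, Foxa2 and Sox17 followed each other most closely over the 12 time course libraries (Pearson's r = 0.972 on log2 values), then Foxa1 and Foxa2 (0.932) and Foxa1 and Sox17 (0.917). Foxa3 stood apart from Foxa1 (r = 0.0902) and Sox7 (0.162). These correlations are descriptions over 12 libraries that share 3 cultures. Over the 10 libraries left without hairpin B of days 6 and 9 they were 0.972, 0.940, 0.931, 0.0857 and 0.161, and those of the like patterns below lay between 0.940 and 0.995. Among 13858 other genes the pattern of Foxa1 was most like that of Sema3a, a secreted axon guidance protein (r = 0.995), Slit1 (0.993) and Six3os1 (0.993). Sema3a read 3.95 FPKM (scrambled), 4.30 (hairpin A) and 0.643 (hairpin B) at day 6 and 6.64, 7.36 and 0.486 FPKM at day 9. Foxa2 was most like Thsd7a (0.991), with Gpm6a at 0.986, and Sox17 was most like Frzb (0.994), a secreted Wnt antagonist, then Samd3 (0.990) and Peg3 (0.989). The nearest pattern to Sox7 was that of Hand2, a transcription factor of heart and limb mesoderm (0.988), followed by Snai1 (0.985) and Hbb-b2 (0.984). Hand2 read 9.42, 1.62 and 0.0378 FPKM at day 6 and 7.62, 1.95 and 0.0703 FPKM at day 9. Foxa3 was most like Mea1 (0.939), Kcnj12 (0.936) and Slc7a8 (0.923), and Hnf4a was most like Hs3st3b1 (0.961), Tnks (0.951) and Slc12a2 (0.946).

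In the survey, undifferentiated stem cells held a trace of each factor, fibroblasts and partially reprogrammed lines lacked reads of Foxa2, Foxa3, Sox17 and Hnf4a, and the fully reprogrammed line had reads of all 6. Reads are given below in the order E14 replicates 1 and 2, v6.5 replicates 1 and 2, miPS, partially reprogrammed lines 11.3 and 11.5, and MEF. Foxa2 had 14, 16, 15.0 and 41 reads in the mESC libraries, 8 in miPS and 0 in each of the other 3. Foxa3 had 16, 15, 15 and 28.4 reads in mESC, 11 in miPS and 0 in the other 3. CPM is the count scaled to library size. The mESC means were 1.68 ± 1.22 CPM (SD, n = 4) for Foxa2 and 1.45 ± 0.786 CPM for Foxa3. A count of 0 allows up to 3 reads, or 0.342 CPM in MEF, 0.398 in line 11.3 and 0.397 in line 11.5.

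Sox17 had 2, 5, 15 and 10 reads in mESC, 8.00 in miPS and 0 in the partially reprogrammed and MEF libraries, and both v6.5 libraries were above both E14 libraries in CPM. Foxa1 had 10, 6, 14 and 17.3 reads in mESC, 2.99 in miPS, 1.09 and 5.01 in lines 11.3 and 11.5 and 1.1 in MEF. It was the only one of the 6 with reads in the partially reprogrammed lines. Sox7 had 3, 1, 11 and 3 reads in mESC, 4 in miPS, 0 and 0 in lines 11.3 and 11.5 and 2 in MEF. Hnf4a had 5, 8, 1 and 1 reads in mESC, 14 in miPS and 0 in the other 3, so miPS had the highest level, 1.84 CPM (95% exact Poisson interval 1.01 to 3.09). The highest mESC value was 0.338 CPM (0.146 to 0.666), and these intervals, which cover counting error only, did not overlap. The deposited TPM of Hnf4a was 1.42 to 1.46 in the libraries with 0 reads, so reads rather than TPM were compared here.

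**Figure D4:**
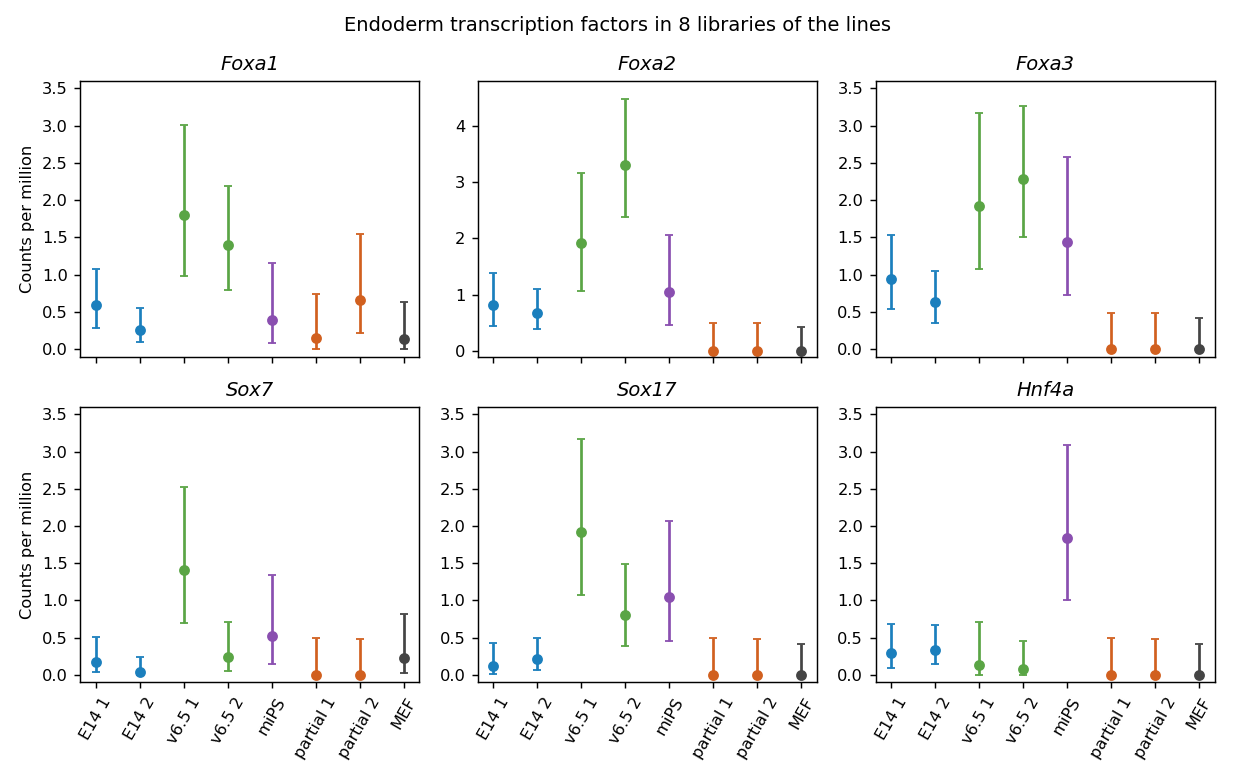
CPM (y axis) of the 6 genes in the 8 survey libraries, with 95% exact Poisson intervals that cover counting error only; partial 1 and partial 2 are lines 11.3 and 11.5. Foxa2, Foxa3, Sox17 and Hnf4a are at 0 in the partially reprogrammed and MEF libraries, and Hnf4a is highest in miPS at 1.84 CPM.

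Foxa2 and Foxa3 were higher in mESC than in MEF and than in the partially reprogrammed lines, whose libraries held no read of either. Taking 3 reads over the group as the floor, the mean of the 4 mESC libraries was 4.91-fold above the MEF floor for Foxa2 and 4.22-fold for Foxa3. It was 8.46-fold and 7.27-fold above the floor of the partially reprogrammed lines. These ratios ignore the spread among mESC libraries. E14 held 0.750 ± 0.104 and 0.787 ± 0.217 CPM of Foxa2 and Foxa3, and v6.5 held 2.61 ± 0.983 and 2.10 ± 0.263 CPM (SD, n = 2 each). In edgeR's quasi-likelihood test against MEF, adjusted p was 0.0354 for Foxa2 and 0.0351 for Foxa3, while 13.2% of 16773 genes were called higher and 28.6% in either direction. Against the partially reprogrammed lines it was 0.0130 and 0.0129 in edgeR, where 16.1% of genes were called higher and 29.7% in either direction. Since these genes had reached the filter only through v6.5 and miPS, where they were high, their number supports nothing further. With no filter, adjusted p in edgeR was 0.0181 and 0.0215 against MEF and 0.00132 and 0.00172 against the partially reprogrammed lines. Sox17 did not pass against either (adjusted p = 0.138 and 0.0615 in edgeR), nor did Foxa1 (0.211 and 0.354). Both calls against MEF were lost without either E14 library (adjusted p 0.109 to 0.115 in edgeR) and in the DESeq2 test, and MEF had 1 library, assumed to vary like the other groups. Against the partially reprogrammed lines both were lost without either E14 library (adjusted p 0.0514 to 0.0566), and Foxa2 also without line 11.3 (0.0504) or line 11.5 (0.0513).

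Line identity was checked with markers. All 12 pluripotency genes were at 1 CPM or more in each mESC and miPS library, 8 and 6 of them in lines 11.3 and 11.5, and 3 in MEF. The summed level of 10 fibroblast genes was 493 to 743 CPM in mESC, 684 CPM in miPS, 58.5 and 61.5 CPM in the feeder-free lines and 51606 CPM in MEF, where Foxa2, Foxa3, Sox17 and Hnf4a had no reads. The part of differentiating cells within the stem cell cultures was not tested.

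Between the stem cell lines, the 4 genes tested had reached the filter through v6.5 or miPS and not through E14, so their shared direction was favoured by the filter. They were lower in E14 than in v6.5, by log2 differences of -2.80 ± 0.82 (SE) for Sox17, -1.80 ± 0.76 for Foxa1, -1.68 ± 0.57 for Foxa2 and -1.30 ± 0.56 for Foxa3, but none passed in edgeR (adjusted p from 0.174 to 0.298), where 0.489% of genes did. Of the 4, 2 had an unadjusted p under 0.05 (Sox17 and Foxa2), and DESeq2 and limma on log2(TPM + 1) also called none. Sox17 passed without v6.5 replicate 2 (adjusted p = 0.0363 in edgeR). Hnf4a, which was not tested, ran the other way, with 0.316 ± 0.0312 CPM in E14 and 0.104 ± 0.0334 CPM in v6.5 (SD, n = 2 each). In miPS against mESC none of the 4 passed or had an unadjusted p under 0.05 (0.0298% of genes passed), with differences from -1.09 for Foxa1 to 1.02 for Sox17, and DESeq2 and limma called none. In the partially reprogrammed lines against MEF none passed or had an unadjusted p under 0.05 in edgeR (13.8% of genes passed), and DESeq2 and limma called none. Foxa1, the one gene of the 4 with reads there, differed by 1.34 ± 1.48 (SE).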

How the data were processed

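Polyadenylated RNA was sequenced in 12 time course and 8 survey libraries. Time course values are FPKM that the authors deposited. The submitters' processing notes name TopHat 1.14 with Bowtie 0.12.7, then Cufflinks 1.3.0, and build mm9. For the survey the authors deposited expected counts and TPM with bounds on the TPM, and the notes name TopHat 1.3 and RSEM. The deposited bounds, and 8 deposited ratio columns, were not used. No source used here says whether counting used strand.

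The 6 genes and all lists were chosen with earlier results of these data known. Time course values were tested with limma 3.58.1 (R 4.3.3, mean trend) on log2(FPKM + 1), which understates changes of low genes. The filter asked for 1 FPKM or more in 2 or more libraries and left 14108 genes. Days were compared with depletion as covariate (7 residual degrees of freedom). Hairpins were compared with scrambled in 8 groups (4 residual degrees of freedom). Hairpins A and B served as the replicates of a group, and the lone scrambled library was assumed to vary like these pairs. Survey counts were rounded and tested with edgeR 4.0.16 (quasi-likelihood, TMM), on the 16773 genes that reached 1 CPM in 2 or more libraries, in 5 groups with 3 residual degrees of freedom. All tests were two-sided with Benjamini-Hochberg adjustment over all genes and a threshold of 0.05. Both scripts were tested on simulated data. DESeq2 1.42.0 was an alternative.

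The 4 libraries of a culture come from cells with the same hairpin, so culture pairs them by design. The main fit of days held depletion but no culture term, so its p-values ignore this pairing. Culture entered only as a block in an alternative fit. Deviations from day means correlated from -0.0910 to 0.642 between libraries of a culture, and from -0.506 to 0.320 between cultures. Depth in the time course was inferred from the smallest FPKM steps of genes with 1 transcript, so reads given there are approximate, for the longest GENCODE transcript. Genes named from a list were the up to 4 with the largest change among those passing, or among all where none passed, and the text names some of these; Shh was chosen after its values were seen. Like patterns were the 3 genes with the highest Pearson's r, of which 1 is not reported here.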

Additional observations from a re-analysis of the deposited data

Results flagged for a closer look

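Among the 4 mESC libraries, Sox7 in v6.5 replicate 1 (11 reads, 1.41 CPM) lay far from the others (3, 1 and 3 reads, 0.0423 to 0.242 CPM), with a gap to its nearest neighbour of 0.854 of the whole range. Of 6 genes checked in this way it was the only one to stand out. For normally distributed values chance alone flags about 1 in 20 groups, and counts this low need not keep that rate.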

How the results depend on the processing

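Without the hairpin B libraries of days 6 and 9, the genes called of the 6 were 2 at day 3, 6 at day 6, 4 at day 9 and 4 between days 6 and 9, against 0, 3, 1 and 0. Calls rose over all genes too, to 27.2%, 46.3%, 60.1% and 16.0% in these comparisons, against 6.04%, 8.68%, 16.6% and 0.0425%. At day 9 the count was 3 with a pseudocount of 0.1, 0 with no filter, 2 without loci under 300 bases, and 0 with libraries scaled to 1 median, which moved the median of all genes by -0.13. Culture as a replicate block gave 3 at day 9 and changed no other call of the 6 genes. In the hairpin comparisons, where the block separates only hairpin A from hairpin B, 0 of the 6 passed. Against MEF the 2 calls became 0 in DESeq2, 1 in limma on log2(TPM + 1) and 0 with the replicate number of E14 and v6.5 as a block. Those lines share only a number (correlation of same-numbered deviations 0.395), and the block moved the calls between E14 and v6.5 over all genes from 82 to 114. Leaving out 1 library gave 0 to 1 calls at day 3, 0 to 4 at day 6, 0 to 4 at day 9, 0 to 2 between days 6 and 9, 0 to 2 against MEF, 0 to 3 against the partially reprogrammed lines, 0 to 1 between E14 and v6.5, and 0 in the hairpin, miPS and partially reprogrammed against MEF comparisons.

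Directions reversed only where no call was made. Leaving out 1 library, log2 differences at day 3 ran from -0.58 to 0.036 for Foxa1, -0.48 to 0.028 for Sox7 and -0.33 to 0.14 for Sox17, each highest without the scrambled library of day 3. Sox17 was also at 0.05 and 0.0023 with the day 0 library of hairpin A or B left out. Between days 6 and 9 they ran from -0.037 to 1.82 for Foxa1, lowest without hairpin A at day 9, from -1.34 to 0.64 for Foxa2, highest without hairpin B at day 9, and from -0.20 to 0.29 for Sox7, which was at -0.06 without hairpin A at day 9 and -0.20 without hairpin B at day 6. Hairpin B alone and hairpin A alone against scrambled gave -2.33 and 0.044 for Foxa2, -0.65 and 0.090 for Foxa3 and -1.96 and 0.056 for Sox17 at day 6, and -3.60 and 0.12 for Foxa2 and -2.38 and 0.17 for Sox17 at day 9. The cause of these changes was not tested. Over all genes, calls at day 6 ran from 93 to 6486 and at day 9 from 85 to 8404. With the scrambled library of a day left out, the hairpin comparison of that day could not be made. Levels of Sox7, Sox17 and Hnf4a at days 0 and 3, and all survey levels, rest on few reads, so differences there were not detectable at this depth unless large.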
